A study of Mus musculus with 11 samples.

Results

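The genes described here are 264 of 21755 protein-coding genes whose start regions differed between the caudal ganglionic eminence (CGE) and the cortex (CTX) in their cover by H3K27me3 peaks. H3K27me3 is the trimethylation of lysine 27 of histone H3. For each gene, the window 2 kb either side of the annotated 5′ end was taken, and coverage is the percentage of its bases that lie under called peaks. Genes were chosen by a difference of at least 40 percentage points (hereafter points) between the CGE and the CTX list. Genes were left out where the medial (MGE) and the lateral ganglionic eminence (LGE) both also differed from CTX by at least 40 points in the same direction. Of the chosen genes, 203 had more coverage in CGE and 61 had more in CTX. Because these values selected the genes, the differences between CGE and CTX are a description and carry no test.

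All samples came from wild-type C57BL/6J mouse embryos, with no allele or treatment that separates the groups. The series holds 11 CUT&Tag samples, 2 from MGE and 3 each from CGE, LGE and CTX, with 100000 nuclei in each reaction. CUT&Tag directs a transposase to nucleosomes that carry a modification, so that the DNA around them is cut and sequenced. CUT&Tag was done on embryos of E12.5, while the protocol in the labels names E14.5 as well and somatosensory cortex, and the labels give no age for a single sample. Tissue of several embryos was combined for a region, and the protocol's wording also speaks of mixing nuclei of the 4 regions, although each sample is labelled with 1 region. Each region has 2 replicate numbers, which stand for biological replicates, and in CGE, LGE and CTX the second number is held by 2 samples. Peaks were called by the authors on the merged samples, so each region is 1 list without replicate error, and no difference below could be set against the spread between replicates.

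H3K27me3 is placed by Polycomb repressive complex 2 and is known for marking genes that a cell type keeps silent, many of them regulators of other lineages. In the embryonic forebrain the ganglionic eminences lie ventrally and produce GABAergic neurons, and the CGE is a source of cortical interneurons. The cortex lies dorsally, and its progenitors produce glutamatergic projection neurons. Coverage says how much of a window lies within a peak, and measures neither the amount of the modification nor expression.

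The promoter stretches below are shown because they lie inside windows on which the description turns, and because CG dinucleotides are frequent in many Polycomb target promoters. Each is read 5′ to 3′ on the gene's strand from the RefSeq promoter table of GRCm38.p6 and stops before the GENCODE 5′ base. Capitals mark CG. The first 4 genes had more coverage in CGE and the last 3 had more in CTX.
Neurog2: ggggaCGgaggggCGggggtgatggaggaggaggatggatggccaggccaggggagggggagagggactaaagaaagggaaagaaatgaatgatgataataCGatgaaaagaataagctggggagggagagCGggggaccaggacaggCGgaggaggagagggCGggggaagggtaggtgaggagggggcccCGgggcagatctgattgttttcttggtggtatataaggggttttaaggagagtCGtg
Pax6: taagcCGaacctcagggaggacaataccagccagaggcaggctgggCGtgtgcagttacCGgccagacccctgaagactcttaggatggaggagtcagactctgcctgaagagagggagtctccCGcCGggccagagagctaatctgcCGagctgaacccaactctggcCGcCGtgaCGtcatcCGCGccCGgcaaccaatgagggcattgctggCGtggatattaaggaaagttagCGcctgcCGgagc
Zbtb18: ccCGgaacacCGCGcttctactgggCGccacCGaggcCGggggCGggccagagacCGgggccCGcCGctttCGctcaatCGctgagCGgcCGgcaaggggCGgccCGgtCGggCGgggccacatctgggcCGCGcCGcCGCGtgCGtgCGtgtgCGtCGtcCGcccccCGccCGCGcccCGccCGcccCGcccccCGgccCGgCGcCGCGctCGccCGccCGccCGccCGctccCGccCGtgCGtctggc
Epha4: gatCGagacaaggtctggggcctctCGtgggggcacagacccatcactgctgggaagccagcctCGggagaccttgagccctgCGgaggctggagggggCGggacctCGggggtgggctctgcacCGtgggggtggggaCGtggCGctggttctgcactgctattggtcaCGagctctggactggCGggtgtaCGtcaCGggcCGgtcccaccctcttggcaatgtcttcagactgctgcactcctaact
Gad2: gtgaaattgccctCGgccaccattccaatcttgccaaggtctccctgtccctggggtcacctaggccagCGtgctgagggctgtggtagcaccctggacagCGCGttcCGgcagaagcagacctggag
Kcna3: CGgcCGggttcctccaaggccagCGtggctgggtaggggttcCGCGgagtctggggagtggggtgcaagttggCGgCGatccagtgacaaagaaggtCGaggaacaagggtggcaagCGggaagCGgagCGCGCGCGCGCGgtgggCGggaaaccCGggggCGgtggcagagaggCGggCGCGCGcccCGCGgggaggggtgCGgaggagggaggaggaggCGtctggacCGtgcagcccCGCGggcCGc
Cadm3: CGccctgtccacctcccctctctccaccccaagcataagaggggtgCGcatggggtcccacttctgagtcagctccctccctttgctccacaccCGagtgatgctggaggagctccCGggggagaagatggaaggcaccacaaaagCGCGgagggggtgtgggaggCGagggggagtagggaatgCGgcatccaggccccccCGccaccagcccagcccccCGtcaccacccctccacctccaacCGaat
The *Neurog2* stretch (chr3:127632886-127633134, plus strand) lay wholly under a CGE peak and to 81.9% under a CTX peak. The *Pax6* stretch (chr2:105668646-105668895, plus strand) lay wholly under peaks in CGE, MGE and LGE and had no covered base in CTX. The stretches of *Zbtb18* (chr1:177442101-177442350, plus strand) and *Epha4* (chr1:77515089-77515338, minus strand) lay wholly under a CGE peak and under no peak of the other lists. The *Gad2* stretch (chr2:22622077-22622204, plus strand) lay under peaks in all 4 lists, so its windows differed elsewhere. The *Kcna3* stretch (chr3:107035912-107036161, plus strand) was covered in CTX and MGE alone, and the *Cadm3* stretch (chr1:173367696-173367945, minus strand) in every list other than CGE. The stretches also differed in their letters, from 5 CG in 128 bases at *Gad2* to 47 in 250 bases at *Zbtb18*. Only 0.310% of the RefSeq promoters matched to a gene held as many CG in the same length as *Zbtb18*, against 6.49% for *Kcna3* with 31, 38.4% for *Pax6* with 15 and 58.1% for *Neurog2* with 8. *Zbtb18* was picked for display after its values were seen.

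Before the exclusion, 244 genes (1.12% of all protein-coding genes) had at least 40 points more coverage in CGE and 114 (0.524%) had at least 40 points more in CTX. The exclusion removed 41 genes with more coverage in all 3 eminences than in CTX and 53 with less. It left 0.933% of the genes on the CGE side and 0.280% on the CTX side. Differences of this size were uncommon, since 4689 of the 7885 genes with a covered base in either list (59.5%) differed by less than 10 points. The CGE list was slightly larger, with 32.9 Mb under 19196 peaks against 31.2 Mb under 18785 in CTX, yet somewhat fewer genes had a covered base in it (6597 against 7070). The lists carry no read counts, but the study's methods give more reads for CGE than for CTX. The part of sequencing depth in the direction of the differences was not tested. To see how far the choice depended on the lists, 4 other settings were used. Peaks were kept at a q-value under 0.001, joined where less than 3 kb apart, cut to lists of equal length by strength, or cut to lists of equal covered bases by strength. The q-value is the peak caller's significance of a peak above background, given below as its −log10, which is higher for more significant peaks. It is not the height of a peak, which the fold enrichment gives as a ratio over local background. Strength here means rank by q-value. With the strongest peaks of every list limited to the same covered bases, the share of selected genes that lay on the CGE side was 66.0% of 359, against 76.9% of 264. With a q-value under 0.001 it was 87.8% of 394.

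**Figure D1:**
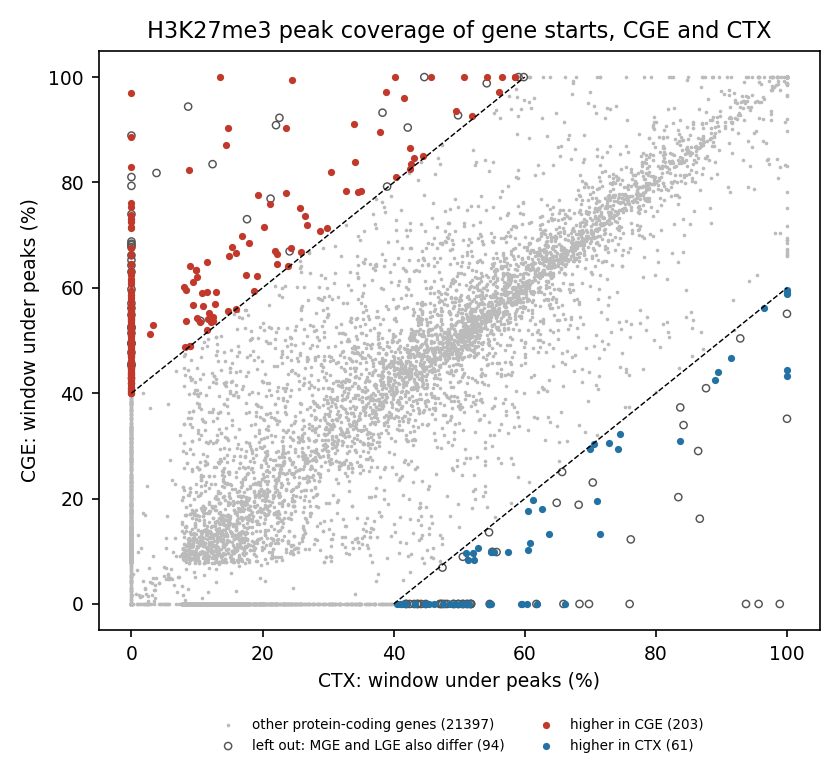
Each point is a protein-coding gene, with the percentage of its 4 kb window under CTX peaks on the x axis and under CGE peaks on the y axis. Red and blue points are the 203 and 61 selected genes, open circles are the 94 genes left out because MGE and LGE differed from CTX too, and the dashed lines mark 40 points. Many red points stand on the left edge, where CTX has no covered base (119 of 203), and 30 of the 61 blue points stand on the lower edge, where CGE has none.

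Among the 203 genes with more coverage in CGE, the CGE value ran from 40.0% to 100% with a median of 56.0%, and 119 genes had no covered base in CTX. The median difference was 48.3 points and the highest was 97.0. A difference of 60 or more points was seen in 28 genes, and 115 lay under 50 points. The 61 genes with more coverage in CTX had a median CTX coverage of 54.9%, a median CGE coverage of 8.33% and a median difference of 45.4 points, the highest being 66.1. Only 3 of them reached 60 points, and 40 lay under 50. At the threshold on the CGE side, the last genes inside were *Gdf5* and *Krtcap3* with 40.0 points and *Hexa* with 40.1, and the first outside were *Nfib* (39.98 points), *Eya1* (39.88) and *Tacr1* (39.78). At the other end *6330409D20Rik* stood inside, where CGE minus CTX was -40.1 points, with *Hcn4* (-40.4) and *Six2* (-40.5), while *Tmem189* (-39.88), *Mpped1* (-39.8) and *Samd14* (-39.78) stood outside.

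Factors of the pallial and glutamatergic lineage act in the cortex, and the CGE gives rise mainly to other neurons. Of 32 genes in this list, 4 were selected with more coverage in CGE (beside 0.933% of all genes) and none with more in CTX. The other 28 were not all alike, because over the whole list 16 genes had more coverage in CGE, 10 had less and 6 were equal, with a median difference of 1.0 point. A covered base was seen in 26 of the 32 genes in CGE and in 26 in CTX, against 30.3% and 32.5% of all genes. Only genes with a covered base in CGE could be selected on the CGE side, and the same holds for CTX. The shares of all genes given beside the lists are not limited to such genes. The exclusion removed 3 genes of the list. *Foxp2*, a forkhead factor of deep-layer and striatal neurons, was covered at 100% in CGE, 13.5% in CTX, 66.9% in MGE and 31.4% in LGE. Its CGE peak was 5280 bases wide (chr6:14898256-14903535) and lay to 58.6% upstream of the gene, to 32.1% on its introns and to 9.32% on its exons. The CGE value was the highest of the 4 and the CTX value the lowest.

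*Neurog2*, the proneural bHLH factor of cortical progenitors, was covered at 92.5% in CGE, 51.9% in CTX, 92.9% in MGE and 63.5% in LGE. CGE and MGE were nearly equal, and LGE stood nearer to CTX. The CGE peak (chr3:127631144-127634844) held the promoter printed above together with 1709 bases downstream of the 5′ end. The difference at *Neurog2* was 40.6 points and depended on gaps between neighbouring peaks, since it was 5.6 points after peaks less than 3 kb apart were joined. With a q-value under 0.001 it was 92.5 points, because CTX then had no covered base.

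*Pax6*, a paired homeobox factor of cortical radial glia, was covered at 86.6% in CGE, 42.5% in CTX, 100% in MGE and 82.0% in LGE. All 3 eminences thus stood above CTX, LGE by just under the 40 points that would have left the gene out. The CGE peak (chr2:105666360-105670361) lay to 63.5% upstream of the gene and to 32.8% on introns. *Sox5*, which acts in the timing of deep-layer neurons, was covered at 82.0% in CGE, 30.4% in CTX, 67.4% in MGE and 55.7% in LGE, in the same order of CGE, MGE, LGE and CTX as *Foxp2*. The nearest *Sox5* entry of the RefSeq promoter table lay 834871 bases from this GENCODE 5′ end, so the values hold for the GENCODE start alone. *Zbtb18*, a zinc finger repressor needed in cortical projection neurons, is in none of the lists and stood out for another pattern, with 71.3% in CGE and 0 in the other 3. The CGE peak there (chr1:177441498-177444540) was 3043 bases wide with a −log10 q of 3.03, and it was lost when lists of equal covered bases were used.

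The list of CGE and subpallial lineage factors held 36 genes, of which 1 was selected on each side (2.78% each, beside 0.933% and 0.280% of all genes). Of the 36 genes, 32 had a covered base in CGE and 29 in CTX, and the median difference over the list was 0. *Meis2*, a TALE homeobox factor of ventral neurons, was covered at 51.0% in CGE, 51.1% in MGE and 0 in CTX and LGE. Its CGE coverage came from 2 peaks that flanked the 5′ end, one upstream of it (chr2:116066578-116067978) and one within the gene (chr2:116060279-116064615). The difference of 51.0 points was 19.4 with a q-value under 0.001 and with equal covered bases, and 100 after neighbouring peaks were joined. *Gad2*, which encodes a GABA-synthesising enzyme, went the other way, with 58.9% in CGE, 100% in CTX, 64.8% in MGE and 60.8% in LGE. The 3 eminences lay within 6 points of each other and below CTX. The CTX peak at *Gad2* was 5430 bases wide (chr2:22619208-22624637), 55.2% of it upstream of the gene. The difference of 41.2 points was 0 after peaks less than 3 kb apart were joined, because in CGE it was a gap between peaks.

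Markers of region identity were also read as coverage, since the series holds no expression. Of 8 cortical markers, 4 had more coverage in CGE than in CTX and 1 had less. Of 11 markers of CGE and the other eminences, 3 had more in CGE and 5 had less. Of 3 MGE markers, 0 had more in CGE and 1 had less. Several differences were small, such as -0.275 points at *Gsx2*, -0.325 at *Nr2f2*, -1.0 at *Prox1* and 1.1 at *Dlx5*. Larger ones without selection were 26.4 points at *Lhx2*, 12.9 at *Emx1*, -11.55 at *Dlx6* and -34.0 at *Lhx8*. *Neurog2* and *Gad2* were the only selected genes among them. *Neurod6*, *Gad1* and *Nr2f1* had no covered base in CGE or CTX, and *Eomes* and *Nkx2-1* were covered at 100% in both. *Sp8* differed by 47.7 points and was left out because MGE and LGE differed from CTX in the same way. The identity of the dissected tissue could thus not be read from most of these windows.

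**Figure D2:**
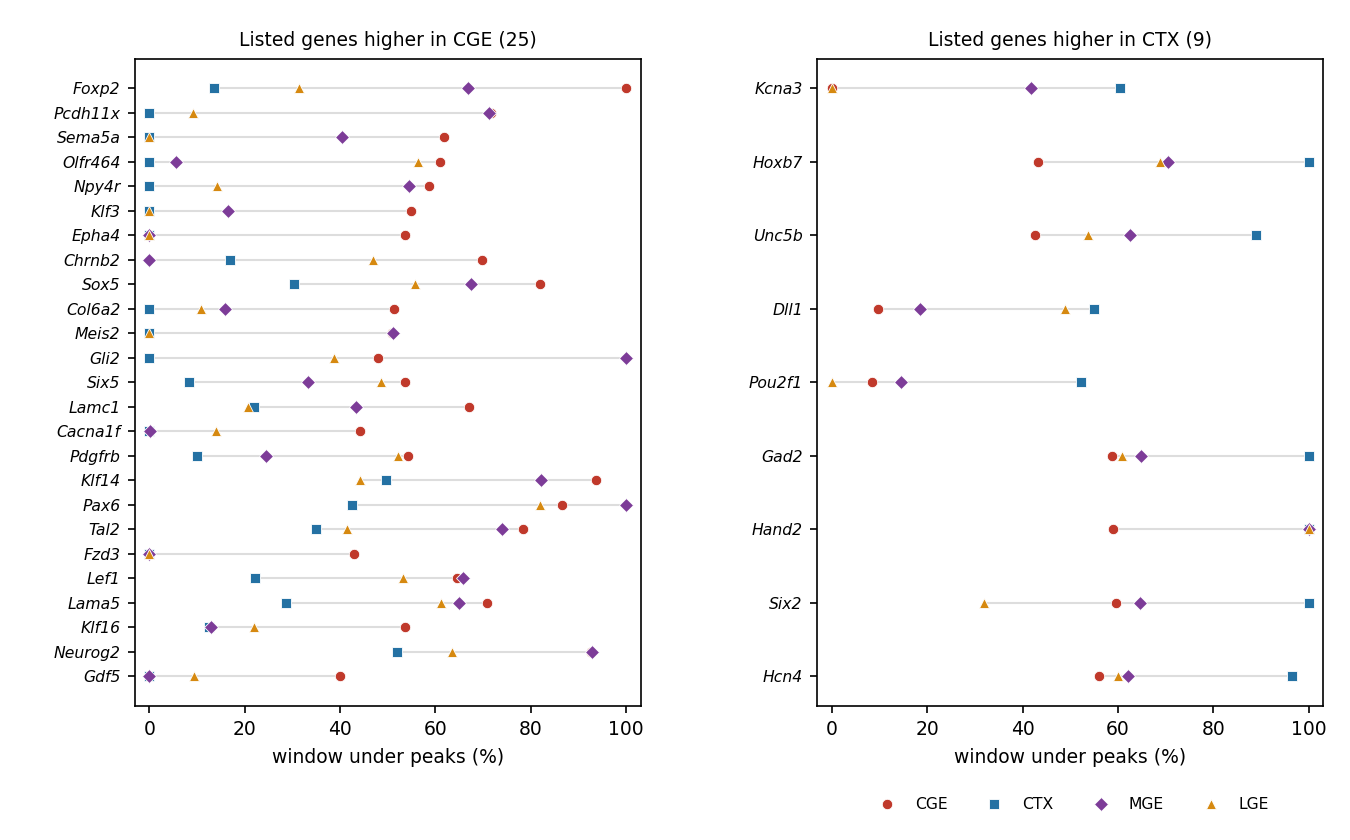
The x axis is the percentage of the 4 kb window under peaks, and each row is a selected gene that belongs to one of 25 gene lists, 25 genes with more coverage in CGE on the left and 9 with more in CTX on the right. The 4 symbols are the 4 regional lists, each 1 merged list without error bars; *Epha4* and *Fzd3* have a CGE value alone, whereas at *Hand2* all lists but CGE stand at 100%.

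Among signalling genes, the Wnt list supplied 2 of 53, both with more coverage in CGE (3.77%, beside 0.933% of all genes). Of the 53, 51 had a covered base in CGE, and the median difference over the list was 2.85 points. *Lef1*, the nuclear effector of canonical Wnt signalling, was covered at 64.6% in CGE, 22.2% in CTX, 65.7% in MGE and 53.2% in LGE. *Fzd3*, a Frizzled receptor needed for axon tracts, had 43.0% in CGE and no covered base in the other 3 lists. The *Lef1* peaks in CGE reached a −log10 q of 56.0, whereas the *Fzd3* peak stood at 1.41 and was absent at a q-value under 0.001. The fold enrichments of these peaks were close, at 2.25 for the most significant *Lef1* peak and 2.20 for *Fzd3*.

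In the hedgehog list (14 genes), *Gli2* was the selected gene (7.14%, beside 0.933% of all genes). All 14 genes had a covered base in CGE, and 10 had one in CTX. *Gli2*, a transcriptional effector of Sonic hedgehog, was covered at 48.0% in CGE, 100% in MGE, 38.7% in LGE and 0 in CTX. MGE was thus far above CGE, and LGE fell short of 40 points above CTX. The CGE peak (chr1:119050168-119053538) began 81 bases downstream of the 5′ end and lay to 92.97% on introns, so the 2 kb upstream alone held no difference. Of 39 genes in the BMP and TGF-β list, 33 had a covered base in CGE. *Gdf5*, a ligand of the BMP family, was the 1 selected gene (2.56%, beside 0.933% of all genes). It stood on the threshold at 40.0% in CGE and 9.4% in LGE, with 0 in CTX and MGE.

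In the Notch list (22 genes), 1 gene was selected on the CTX side (4.55%, beside 0.280% of all genes). Of the 22 genes, 18 had a covered base in CGE and 17 in CTX. *Maml2*, described below as a coactivator of Notch, was selected on the CGE side but is not in this list. *Dll1*, a Notch ligand of differentiating progenitors, was covered at 54.9% in CTX, 48.9% in LGE, 18.6% in MGE and 9.78% in CGE. CTX and LGE were close to each other and well above CGE. The CTX peak had a −log10 q of 2.63, and with a q-value under 0.001 CGE minus CTX was 9.78 points, the opposite direction. No gene of the FGF (33 genes) or the retinoic acid list (17 genes) was selected.

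The list of homeobox and paired factors (131 genes) supplied 3 genes on each side (2.29% each, beside 0.933% and 0.280% of all genes). In this list 122 genes had a covered base in CGE, against 30.3% of all genes, and the median difference over the list was 0, as it was over all genes. Besides *Pax6* and *Meis2*, *Six5* had more coverage in CGE, with 53.7% against 8.33% in CTX, 33.2% in MGE and 48.5% in LGE. Those with more in CTX were *Hoxb7*, *Six2* and *Pou2f1*. *Hoxb7*, a trunk patterning gene, was covered at 43.2% in CGE, 100% in CTX, 70.5% in MGE and 68.8% in LGE. *Six2*, known from kidney progenitors, was covered at 59.6% in CGE, 100% in CTX, 64.6% in MGE and 31.9% in LGE. The CTX peaks were 7616 bases wide at *Hoxb7* and 8321 at *Six2*, and both differences were 0 after neighbouring peaks were joined. *Pou2f1*, which encodes the widely used octamer factor, was covered at 8.38% in CGE, 52.3% in CTX, 14.6% in MGE and 0 in LGE, and it stayed 40 points apart under all 4 other settings of the lists. None of 12 LIM homeobox genes was selected.

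The list of Sox, forkhead, T-box, Gata, Zic and Klf factors (118 genes) supplied 5 genes, all with more coverage in CGE (4.24%, beside 0.933% of all genes). Of the 118 genes, 89 had a covered base in CGE, and the median difference over the list was 0. Beside *Foxp2* and *Sox5* these were 3 Krüppel-like factors. *Klf3* had 54.8% in CGE, 16.4% in MGE and 0 in CTX and LGE. *Klf14*, a gene without introns, had 93.6% in CGE, 49.5% in CTX, 82.2% in MGE and 44.2% in LGE, and *Klf16* had 53.7% in CGE against 12.45% to 22.0% elsewhere. The list of bHLH factors (47 genes) gave *Neurog2* and *Tal2* on the CGE side and *Hand2* on the CTX side. These were 4.26% and 2.13% of the list, beside 0.933% and 0.280% of all genes. Of the 47 genes, 43 had a covered base in CGE and 43 in CTX. *Tal2*, a factor of midbrain GABAergic neurons, had 78.3% in CGE, 34.98% in CTX, 74.0% in MGE and 41.4% in LGE. *Hand2*, a heart and limb factor, was covered at 100% in CTX, MGE and LGE and at 59.1% in CGE. That difference was 0 after neighbouring peaks were joined, as at *Gad2*.

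Axon guidance genes (72 in the list) supplied *Epha4* and *Sema5a* on the CGE side and *Unc5b* on the CTX side. These were 2.78% and 1.39% of the list, beside 0.933% and 0.280% of all genes. Of the 72 genes, 55 had a covered base in CGE and 55 in CTX. *Epha4*, a receptor for ephrins, was covered at 53.5% in CGE and at 0 in CTX, MGE and LGE. Its CGE peak (chr1:77513507-77515647) covered the promoter printed above and 1581 bases downstream, 67.0% of it on introns. *Sema5a*, a transmembrane semaphorin, was covered at 61.7% in CGE, 40.3% in MGE and 0 in CTX and LGE. *Unc5b*, a netrin receptor, was covered at 42.5% in CGE, 89.0% in CTX, 62.6% in MGE and 53.7% in LGE. All 3 genes stayed 40 points apart under the 4 other settings of the lists, while at *Unc5b* a window of 5 kb either side had 11.4 points more coverage in CGE.

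The list of voltage-gated and potassium channels (98 genes) supplied genes in both directions, 1.02% on the CGE side and 2.04% on the CTX side. The shares of all genes were 0.933% and 0.280%. Of the 98 genes, 75 had a covered base in CGE and 73 in CTX. *Itpr1* and *Kcnn2*, described below, are selected channel genes outside this list. *Kcna3*, a voltage-gated potassium channel, was covered at 60.4% in CTX, 41.8% in MGE and 0 in CGE and LGE. Its CTX peak (chr3:107035632-107038045) lay to 77.8% on exons of the gene and had a −log10 q of 1.34, so that the gene had no covered base in CTX at a q-value under 0.001, with lists of equal length or with equal covered bases. *Hcn4*, a pacemaker channel, was covered at 96.5% in CTX and between 56.1% and 62.1% in the eminences. *Cacna1f*, a calcium channel known from the retina, was covered at 44.2% in CGE, 14% in LGE, 0.15% in MGE and 0 in CTX. Receptors for transmitters and neuropeptides (109 genes) gave *Npy4r* and *Chrnb2*, both on the CGE side (1.83%, beside 0.933% of all genes). Of the 109 genes, 77 had a covered base in CGE, against 30.3% of all genes. *Npy4r* had 58.7% in CGE and 54.6% in MGE against 14.2% in LGE and 0 in CTX, and *Chrnb2*, a nicotinic receptor subunit, had 69.8% in CGE and 46.9% in LGE against 16.9% in CTX and 0 in MGE.

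Extracellular matrix genes (111 in the list) supplied 3 genes on the CGE side, *Col6a2*, *Lama5* and *Lamc1* (2.70%, beside 0.933% of all genes). Of the 111 genes, 76 had a covered base in CGE, against 30.3% of all genes. *Lama5*, a laminin chain, was covered at 70.8% in CGE, 28.8% in CTX, 65.0% in MGE and 61.2% in LGE, and *Col6a2* at 51.3% in CGE, 15.9% in MGE, 10.8% in LGE and 0 in CTX. *Lamc1* was covered at 67.0% in CGE and 22.0% in CTX. Without its CGE peak (fold enrichment of 2.39, −log10 q of 1.45) CGE minus CTX was -22.0 points. Of 97 cadherin genes, *Pcdh11x* was selected (1.03%, beside 0.933% of all genes), with 71.6% in CGE, 71.2% in MGE, 9.15% in LGE and 0 in CTX. Of the markers of other cells that a dissection could hold, 1 of 19 vessel, pericyte and blood genes was selected (5.26%, beside 0.933% of all genes). Of these 19 genes, 10 had a covered base in CGE. The selected gene was *Pdgfrb*, with 54.2% in CGE, 52.1% in LGE, 24.4% in MGE and 10.0% in CTX. None of 10 microglial, 12 meningeal or 13 glial and choroid plexus markers was selected. The lists of 27 Polycomb complex genes, 12 cyclins and CDK inhibitors and 92 ribosomal protein genes held none either. Of 1421 olfactory and vomeronasal receptor genes *Olfr464* was selected (0.0704%, beside 0.933% of all genes), with 61.1% in CGE and 56.4% in LGE. In all, 25 selected genes on the CGE side and 9 on the CTX side belonged to a list, so most were outside these lists. The lists are not complete, and a selected gene outside them can belong to one of the same families or pathways.

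Ranked by size alone, the CGE side was led by *Nsmaf*, an adaptor of a tumour necrosis factor receptor, with 97.0% in CGE, 31.5% in LGE, 14.9% in MGE and 0 in CTX. *Irf2*, an interferon regulatory factor, was covered at 83.0% in CGE and at 0 in all other lists, by a peak of 3318 bases (chr8:46738122-46741439) with a −log10 q of 7.56. *Itpr1*, the intracellular calcium channel opened by inositol trisphosphate, was covered at 76.0% in CGE and 75.8% in MGE against 12.6% in LGE and 0 in CTX. CGE therefore stood alone at *Irf2* and together with MGE at *Itpr1*. The next 4 genes in rank were these. *Tnfrsf12a*, the receptor for the cytokine TWEAK, had 90.4% in CGE, 58.1% in LGE, 51.2% in MGE and 14.7% in CTX, and its window overlapped that of *Cldn6*. *Pdgfc*, a growth factor, had 75.4% in CGE, 42.5% in LGE, 31.2% in MGE and 0 in CTX. *Sulf2*, which trims heparan sulfate, had 99.5% in CGE, 24.5% in CTX, 21.1% in MGE and 70.5% in LGE. *Ltbp3*, a binding protein of latent TGF-β, had 73.9% in CGE, 43.4% in LGE, 23.1% in MGE and 0 in CTX. In all of these LGE stood above MGE, which was not so at *Itpr1* or *Foxp2*.

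The remaining genes among the first 15 on the CGE side were *Gm13285*, *Fancc*, *Rnf224*, *Fndc8*, *S100a7a*, *Tmem268* and *Grip1*, with differences between 72.6 and 88.6 points. *Fndc8* shared its window in part with *Rad51d*. Of the first 15 genes, 9 were still at least 40 points apart under all 4 other settings of the lists, among them *Foxp2*, *Irf2*, *Itpr1*, *Sulf2* and *Ltbp3*. *Nsmaf* had no covered base in either list at equal covered bases.

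The CTX side was led by *Cadm3*, a synaptic adhesion molecule, with 66.1% in CTX, 58.1% in LGE, 7.8% in MGE and 0 in CGE. Its CTX peak (chr1:173365595-173368340) lay to 66.2% on introns. *Gnb4*, a G protein subunit, followed with 61.8% in CTX, 21.9% in LGE, 19.2% in MGE and 0 in CGE. *Slain1*, a microtubule plus-end protein, had 59.5% in CTX, 28.6% in MGE and 0 in CGE and LGE, and *Nck2*, a signalling adaptor, had 59.4% in CTX, 57.3% in LGE, 17.0% in MGE and 0 in CGE. LGE was thus close to CTX at *Cadm3* and *Nck2* and close to CGE at *Slain1*. *Xkr4* was covered at 71.5% in CTX, 92.1% in LGE, 19.1% in MGE and 13.3% in CGE. *Dusp8*, a phosphatase of MAP kinases, was covered at 100% in CTX, 60.2% in MGE, 50.4% in LGE and 44.4% in CGE. *Kcnn2*, a calcium-activated potassium channel, had 54.6% in CTX, 14.98% in MGE, 13% in LGE and 0 in CGE. The others among the first 15 were *Nell2*, *Sertad4*, *Fmn2*, *Sptbn1* and the neighbours *Slc25a29* and *Slc25a47*, whose windows lay on the same peak. Their differences ran from 51.5 to 54.8 points, and 8 of the first 15 genes were kept under all 4 other settings of the lists.

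The shape of the difference along the window was not the same on both sides. On the CGE side the median difference was 46.9 points in the upstream 2 kb and 57.9 points in the downstream 2 kb, with the larger value downstream in 112 of 203 genes. On the CTX side the medians were 26.3 points upstream and 69.9 points downstream, and 43 of 61 genes had the larger value downstream. Mean coverage of the CGE side was highest 375 bases downstream of the 5′ end, at 84.6% in CGE, where LGE and MGE also had their highest means (45.5% and 43.4%). The CTX mean reached 18.3% at most. Between 5 and 10 kb from the 5′ end, outside the window that chose the genes, the CGE mean was 4.01% and the CTX mean 2.39%, beside 2.35% and 2.06% over all genes. At that distance the genes of the CTX side also had the higher mean in CGE, 5.11% against 4.42% in CTX. For the 61 genes of the CTX side the highest means were 90.6% in CTX, 51.0% in LGE, 33.5% in MGE and 20.7% in CGE, the last reached 2625 bases downstream and so outside the window.

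**Figure D3:**
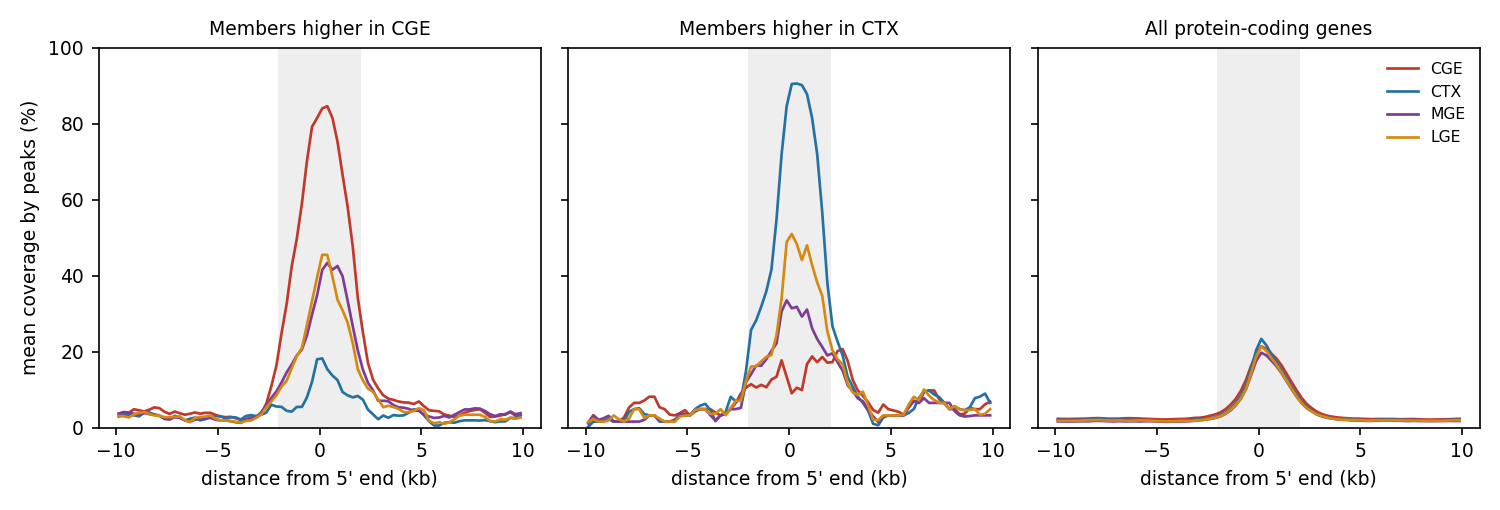
The x axis is the distance from the annotated 5′ end in kb, with the 4 kb window in grey, and the y axis is the mean percentage of bases under peaks in bins of 250 bases. The panels hold the 203 genes with more coverage in CGE, the 61 with more in CTX and all 21755 protein-coding genes; LGE and MGE run between CGE and CTX over the grey window in the first panel, while all lists nearly coincide in the third, where the highest means lie between 19.8% and 23.4%.

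The peaks behind these differences were of middling rank. Of the 203 genes on the CGE side, 192 had a single CGE peak on the window, and the strongest peak had a median −log10 q of 5.01, a median fold enrichment of 2.75 and a median rank at percentile 52.3 of the CGE list by q-value. All 3668 genes covered at 40.0% or more in CGE, the lowest value of the 203, had their strongest peak at a median percentile of 84.5 and a median −log10 q of 32.2. The CTX peaks of the 61 genes had a median percentile of 50.2, against 85.2 for all 3242 genes covered at 40.55% or more in CTX, the lowest value of the 61. Both larger sets include the selected genes, and coverage was not matched. Of the 119 genes with no covered base in CTX, 29 had a CTX peak within 10 kb of the window, and the median gap was 45623 bases.

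LGE and MGE were compared with the pair by placing each on a scale with CTX at 0 and CGE at 100. The exclusion used these values in part, so they describe the genes that were left. The MGE and LGE lists were also smaller, with 24.5 Mb and 26.4 Mb under peaks, against 32.9 Mb in CGE and 31.2 Mb in CTX. The study's methods also give fewer reads for MGE and LGE than for CGE or CTX. A smaller list can hold less coverage at any window, and the part of list size or depth in the positions was not tested. On the CGE side the median position was 27.8 for LGE and 30.8 for MGE. Both were nearer to CGE than to CTX in 39 genes, LGE alone in 30, MGE alone in 37 and neither in 97. On the CTX side the median position was 65.3 for LGE and 79.5 for MGE, with both nearer to CGE in 31 genes, MGE alone in 19, LGE alone in 9 and neither in 2. In all, LGE was nearer to CGE in 69 and MGE in 76 of the 203 genes with more coverage in CGE, and in 40 and 50 of the 61 genes with more coverage in CTX.

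**Figure D4:**
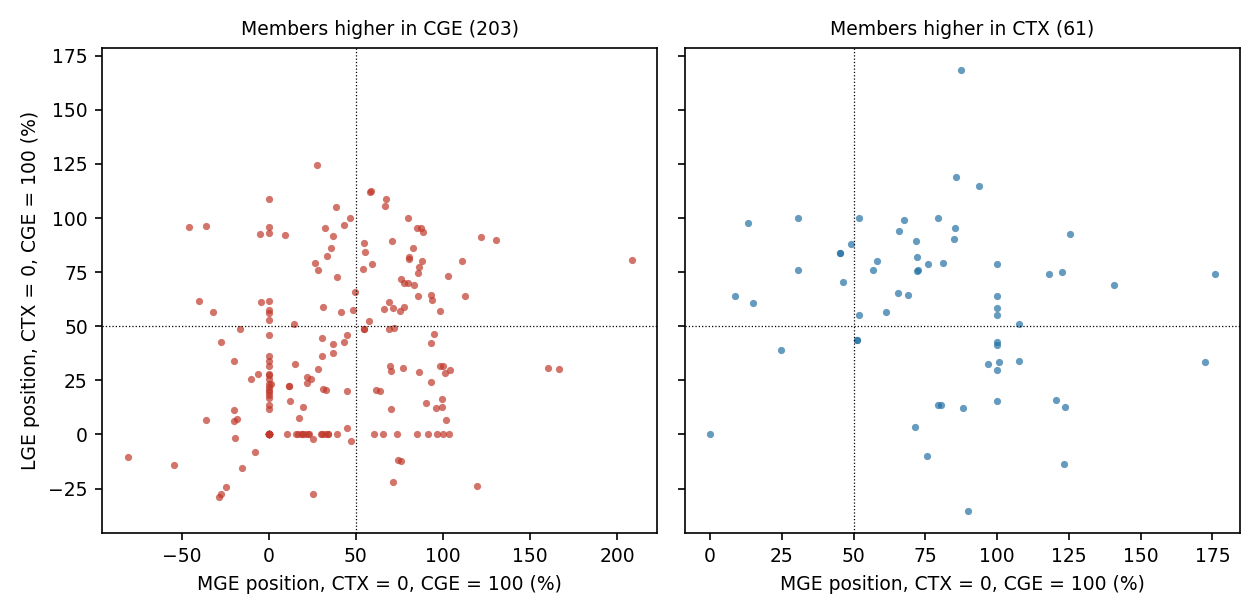
Each point is a selected gene, placed by MGE on the x axis and LGE on the y axis, both as a percentage of the way from CTX (0) to CGE (100) in window coverage, with dotted lines at 50. On the left, 97 of 203 genes lie below and to the left of both lines, and on the right 2 of 61 do; genes with MGE and LGE both far on the CGE side are partly absent because of the exclusion.

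In 27 genes CGE was the only list with a covered base. They included *Irf2*, *Zbtb18*, *Epha4* and *Fzd3*, named above, and *Maml2*, *Apc2*, *Msi2* and *Lnx1*, which were picked out after their values were seen. *Maml2*, a coactivator of Notch, had 49.0% in CGE with a −log10 q of 7.37, the second highest of the 27 after *Irf2*. The reverse, a gene with a covered base in CTX alone, did not occur, as the exclusion removes every gene with both LGE and MGE at 0 on that side. The LGE and MGE lists were smaller than the CGE list, and CGE had the most reads in the study's methods. The part of list size or sequencing depth in the 27 genes was not tested.

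CG content, which the choice of genes did not use, was read from GRCm38 over the same 4 kb windows. The median number of CG was 123 on the CGE side and 154 on the CTX side, beside 87 over all genes, 127 over the 2913 genes covered at 40% or more in both lists and 59 over the 13870 genes with no covered base in either. The CGE side thus lay near the genes covered in both lists, and the CTX side above them. Relative to the number given by their C and G content, CG stood at a median of 0.464 on the CGE side, 0.542 on the CTX side and 0.373 over all genes. The 27 genes covered in CGE alone had a median of 78 CG, below that of the other 176 on the CGE side (126) and between the genes without a peak and those covered in both. In the 300 bases around the 5′ end, 37.0% of the 27 genes, 54.2% of the CGE side and 60.7% of the CTX side met the usual limits of a CpG-rich promoter, against 41.4% of all genes. These are descriptions over genes of 1 genome, with no test.

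The selection depended on the window and on how the lists were cut. With the genes as chosen, 114 of 203 on the CGE side (56.2%) and 26 of 61 on the CTX side (42.6%) stayed at least 40 points apart under all 4 other settings of the lists. Of the genes in a list, 18 of 25 on the CGE side did so, including *Foxp2*, *Pax6*, *Sox5*, *Lef1*, *Gli2*, *Epha4* and *Sema5a*, and 2 of 9 on the CTX side, *Pou2f1* and *Unc5b*. *Neurog2*, *Tal2*, *Gad2*, *Hand2*, *Hoxb7*, *Six2* and *Hcn4* each fell below 40 points under 1 setting of the lists, the joining of neighbouring peaks. *Meis2*, *Chrnb2* and *Dll1* were kept under 2 of the 4 settings, and *Fzd3*, *Gdf5*, *Lamc1*, *Kcna3* and *Slain1* under 1. Among genes with several annotated 5′ ends, 170 on the CGE side had 955 ends, of which 530 were at least 40 points apart. At every annotated 5′ end the difference reached 40 points in 81 genes of the CGE side and 22 of the CTX side.

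**Figure D5:**
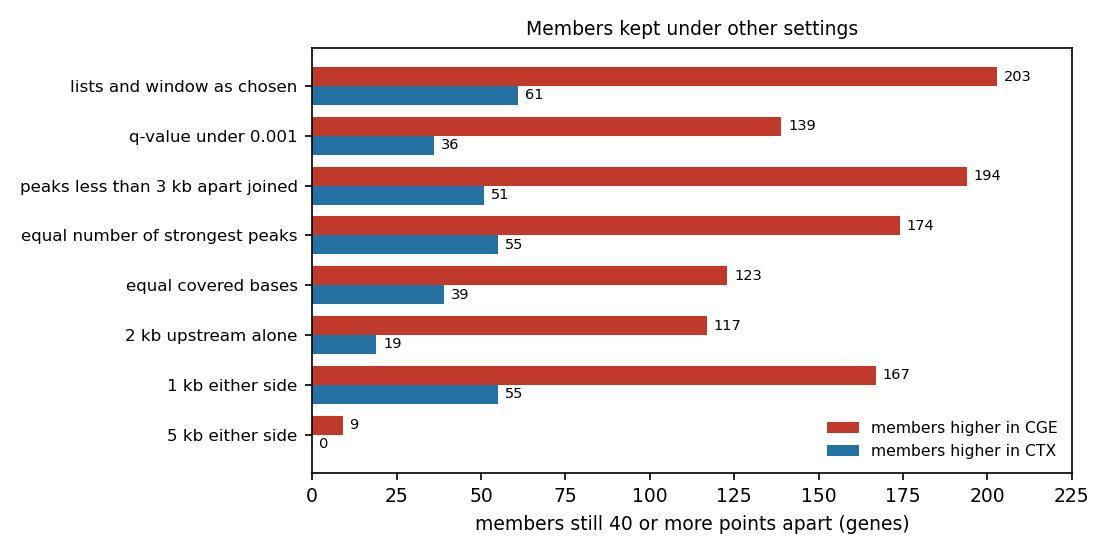
Bars give the number of selected genes that stayed at least 40 points apart between CGE and CTX under each setting on the y axis, red for the 203 genes with more coverage in CGE and blue for the 61 with more in CTX. Joining neighbouring peaks kept 194 and 51 genes, equal covered bases 123 and 39, and a window of 5 kb either side 9 and 0. The last setting asks for a difference as long as the whole 4 kb window, so it could keep few genes.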

How the data were processed

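CUT&Tag with an H3K27me3 antibody was run on nuclei of microdissected MGE, CGE, LGE and CTX, and the region in a sample's labels gave its group. The authors aligned reads to GRCm38 (mm10) with Bowtie2, removed blacklisted regions, removed duplicates with Picard, merged the libraries of each region with SAMtools and ran MACS in its broad mode. The caller's version, threshold and control are not given in the sources used here. The deposited lists hold, for each peak, its position, a score and a −log10 p that were not used, its fold enrichment as a ratio over local background, and the −log10 of its q-value, as the authors' caller wrote them. The fold and the −log10 q served to describe and rank peaks within a list. Merging weighs each sample by its reads, and deeper sequencing can add weak peaks to a list. The study's methods give more reads for CGE than for CTX, and fewer for LGE and MGE than for either. Read counts per list were not analysed here.

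The peaks of the 19 autosomes and chromosome X were intersected with windows around the 5′ end of GENCODE M21 protein-coding genes with Python 3.11.15, numpy 2.4.6, pandas 2.3.3 and matplotlib 3.10.9, and the code was checked against base-by-base counts on simulated peaks. Coordinates count from 1. RefSeq promoters matched 192 of the 264 genes by symbol, chromosome and strand, too few for the CG count, which was therefore read from the genome. The genes named are the first 15 on each side by size of difference, those in 25 gene lists, those next to the threshold, the region markers and overlapping neighbours, with exceptions stated. The selected genes and the lists were chosen with earlier results of these data known.

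As alternatives, neighbouring peaks less than 3 kb apart were joined, and the following were used in turn: a q-value under 0.001, an equal number of strongest peaks, equal covered bases (24.5 Mb in every list), windows of 2 kb upstream, 1 kb and 5 kb either side, the 5′ end of any transcript, thresholds of 30 and 60 points, autosomes alone and overlapping windows counted once. No test was made, since each region is 1 list.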

Additional observations from a re-analysis of the deposited data

How the results depend on the processing

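Values below stand in the order CGE side, then CTX side. The genes at least 40 points apart, 244 and 114, became 439 on the CGE side with a q-value under 0.001 and 369 with the upstream 2 kb alone, and 172 on the CTX side with equal covered bases. They were 535 and 430 with 1 kb either side, 20 and 5 with 5 kb, 377 and 184 with the 5′ end of any transcript, 500 and 279 at 30 points, and 45 and 15 at 60 points. The selected genes, 203 and 61, became 346 on the CGE side with a q-value under 0.001, 305 upstream and 311 with any transcript, and 122 on the CTX side with equal covered bases. They were 420 and 202 with 1 kb, 17 and 2 with 5 kb, 390 and 139 at 30 points, and 38 and 7 at 60 points. The median LGE coverage of the selected genes, 24.7% and 29.1%, was 0 and 0 with a q-value under 0.001 and 12.8% and 13.4% upstream. The median MGE coverage, 22.2% and 18.6%, was 0 and 0 with a q-value under 0.001, 0 on the CGE side upstream, and 29.2% on the CTX side with 1 kb. Of the genes as chosen, 123 and 39 were kept with equal covered bases, 117 and 19 upstream, 9 and 0 with 5 kb, and 36 on the CTX side with a q-value under 0.001. All other counts and medians stayed within 1.5 times.

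Of 427 recomputed differences of the 61 genes named by rank or list, 132 fell below the 40 points in the same direction or to 0 and 7 changed sign. CGE minus CTX was -22.0 points at *Lamc1* with a q-value under 0.001, with lists of equal length and with equal covered bases. It was 9.78 at *Dll1* with a q-value under 0.001 and with equal covered bases, 0.125 at *Hcn4* after joining, and 11.4 at *Unc5b* with 5 kb. *Gm13285*, *Zfp536*, *Dach1*, *Tnfrsf12a* and *Ltbp3* were the 5 genes of the CGE side kept under all 7 settings, against 0 of the CTX side. The window of 5 kb either side could keep few genes, because 40 points of it are as long as the whole 4 kb window. The widest peak on a gene's window had a median of 2386 bases on the CGE side and 2250 on the CTX side. The cause of the difference between the sides was not tested. No replicate could be left out in turn, and no paired analysis was possible because each region is 1 merged list. The lists hold no read counts, and the part of sequencing depth in these results was not tested.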

Other observations

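Genes outside the lists and the first ranks, picked after their values were seen, included further regulators on the CGE side. *Cxcr4*, the chemokine receptor of migrating interneurons, was covered at 90.4% in CGE, 87.8% in MGE, 31.6% in LGE and 23.5% in CTX, and its difference was 24.9 points after neighbouring peaks were joined. *Yap1* and *Tead1*, partners in Hippo signalling, were covered at 60.8% and 43.4% in CGE and at 0 in CTX. *Yap1* also had 47.2% in MGE and 35.9% in LGE, and *Tead1* had 54.0% in LGE and 12% in MGE. *Dach1* had 63.2% in CGE, 62.2% in MGE, 36.0% in LGE and 0 in CTX. *Nr4a2*, an orphan nuclear receptor found in claustrum and subplate, had 31.0% in LGE, 50.3% in CGE and 0 in CTX and MGE, and it had no covered base in CGE with equal covered bases. *Etv1*, an Ets factor of layer 5 neurons, had 58.7% in CGE, 17.8% in MGE and 0 in CTX and LGE, and it was kept under 1 of the 4 other settings of the lists.

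On the CTX side, *Nlgn2*, a postsynaptic adhesion protein of inhibitory synapses, was covered at 63.6% in CTX, 37.8% in LGE, 9.4% in MGE and 13.3% in CGE. After neighbouring peaks were joined, CGE minus CTX at *Nlgn2* was 0.625 points, so that the difference was lost and its sign turned. *Vldlr*, a Reelin receptor, was covered at 57.5% in CTX, 41.5% in LGE, 9.58% in MGE and 9.93% in CGE, and *Scrt2*, a zinc finger factor of new neurons, at 72.8% in CTX, 67.2% in MGE, 31.5% in LGE and 30.5% in CGE. *Msi1*, an RNA-binding gene, had 44.7% in CTX, 10.7% in MGE, 9.48% in LGE and 0 in CGE, while *Msi2* had 42.0% in CGE and 0 elsewhere. Both differences were 0 with a q-value under 0.001 and with equal covered bases. These values have no replicate error, and nothing was tested on them.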
